A study of Saccharomyces cerevisiae with 56 samples.

Results

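The reductive building phase (RB) of the yeast metabolic cycle (YMC) was compared with the oxidative phase (OX) that comes before it, in the CEN.PK strain. RB was represented by time points 13, 14, 15 and 16 and OX by time points 10 and 11, each with 1 RNA-seq and 1 ribosome profiling library, which makes 12 of the 56 libraries of the series and 12 of the 32 libraries of the YMC. The sample table deposited with the data also assigns time points 1, 2 and 12 to RB and time point 9 to OX, so that only part of each phase entered the comparison. Genes were kept when they were not marked as dubious and their mean mRNA count over the 6 samples was at least 7 on the log2 scale. This left 5190 genes for mRNA, and 5179 that also had a mean of at least 1 footprint. The strain is a MATa prototroph grown in a chemostat, and cells of both phases were pretreated with 100 µg/ml cycloheximide (CHX) in ethanol for 2 min before harvest. No YMC sample without CHX was analysed here, so its part in the values below was not tested. Dissolved oxygen was 38.26, 37.39, 35.6 and 34.34% at the RB time points, sampled 3.88 to 4.25 h after the first, and 52.98 and 47.28% at the OX time points, sampled at 3.45 and 3.62 h. All 6 samples came from 1 culture in 1 cycle, and neighbouring time points stand in for replicates. The p-values therefore measure the spread between neighbouring samples of 1 culture and not the spread between cultures, and the SE given below rests on 4 RB and 2 OX samples.

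In the YMC, a continuous culture limited for glucose goes through recurring bursts of respiration, each with a fall in dissolved oxygen. In the samples used here, dissolved oxygen was lower at all RB time points than at both OX time points. Growth genes, above all those for ribosome biogenesis (ribi), are known to peak in OX. DNA replication, cell division and the building of mitochondria are known to follow in RB, before cells enter the quiescent-like reductive charging phase (RC). mRNA and footprint levels are given here as CPM, counts scaled to a library total of 1000000 that was adjusted by the trimmed mean of M values (TMM). They compare 1 gene between samples, not genes of different length with each other. Translation efficiency (TE) is the footprint CPM of a gene over its mRNA CPM in the same sample. A gene was called when its adjusted p was under 0.05 in edgeR's quasi-likelihood test, and fold changes are RB over OX on the log2 scale. Since CPM are relative to all mRNA of a library, total mRNA per cell was not measured. For each gene, values are listed for time points 13, 14, 15 and 16 in RB and for time points 10 and 11 in OX.

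Between 12149282 and 27429226 footprints and between 17799518 and 23693465 RNA-seq reads were counted on genes in these samples, and none of the 66 pairs of libraries was identical. The MATa label was checked by its mating genes. STE2, which encodes the receptor for the pheromone of the opposite mating type, had 6794 to 14036 mRNA counts and BAR1, the protease gene of MATa cells, had 1984 to 8008. STE6, also specific to MATa cells, had 9417 to 15300. The pheromone genes of MATa cells had fewer counts, with 131 to 428 for MFA2 and 0 to 16 for MFA1. Both are short genes, and the first 30 and last 5 codons of each gene were not counted. Their counts therefore do not show how strongly they were expressed. MATalpha-specific genes were not at 0, with 277 to 447 for STE3, 180 to 436 for MF(ALPHA)1 and 1 to 6 for MF(ALPHA)2. SAG1 had 490 to 1103 mRNA counts and 0 to 40 footprints. Of the genes used to mark the phases, MRPL10 (RB) was higher in RB, with 138, 172, 183 and 189.7 CPM in RB, against 59.6 and 66.5 CPM in OX (log2 fold change 1.44 ± 0.15 SE, adjusted p = 0.0004). RPL17B, which marks OX, did not pass the test, with 219.5, 204, 188 and 187 CPM in RB, against 179.9 and 309.7 CPM in OX (-0.29 ± 0.21 SE, adjusted p = 0.27). Its levels overlapped between the phases. POX1, a gene of peroxisomal fatty acid oxidation that marks RC, had 20.2, 24.9, 31.3 and 44.5 CPM in RB, against 157 and 20.0 CPM in OX (-1.55 ± 0.69 SE, adjusted p = 0.097), with time point 10 alone standing above the other samples.

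In mRNA, 2908 of 5190 genes were called, 1403 higher in RB (27.0% of genes tested) and 1505 lower (29.0%), 56.0% in all. Of these, 535 were higher and 675 lower by at least 1 on the log2 scale. In footprints, 996 genes were higher (19.2% of 5179) and 1132 lower (21.9%), 41.1% in all. The footprint changes were mostly those of mRNA. Both measures were called for 1957 genes, 894 of them higher in both, 1062 lower in both and 1 in opposite directions. TE was called for 64 genes (1.24%), 47 higher in RB (0.908%) and 17 lower (0.328%). Over all genes, log2 fold changes had an SD of 0.96 in mRNA, 1.15 in footprints and 0.44 in TE, around medians of -0.0085, -0.027 and -0.0043. Of the mRNA calls, 48.2% were higher in RB, and 58.3% of the calls that limma made on log2(RPKM + 1). Leaving out 1 RB time point at a time gave 2357 to 2630 called genes in mRNA and 1659 to 1825 in footprints. In TE the same fits gave 4 to 6 calls.

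**Figure D1:**
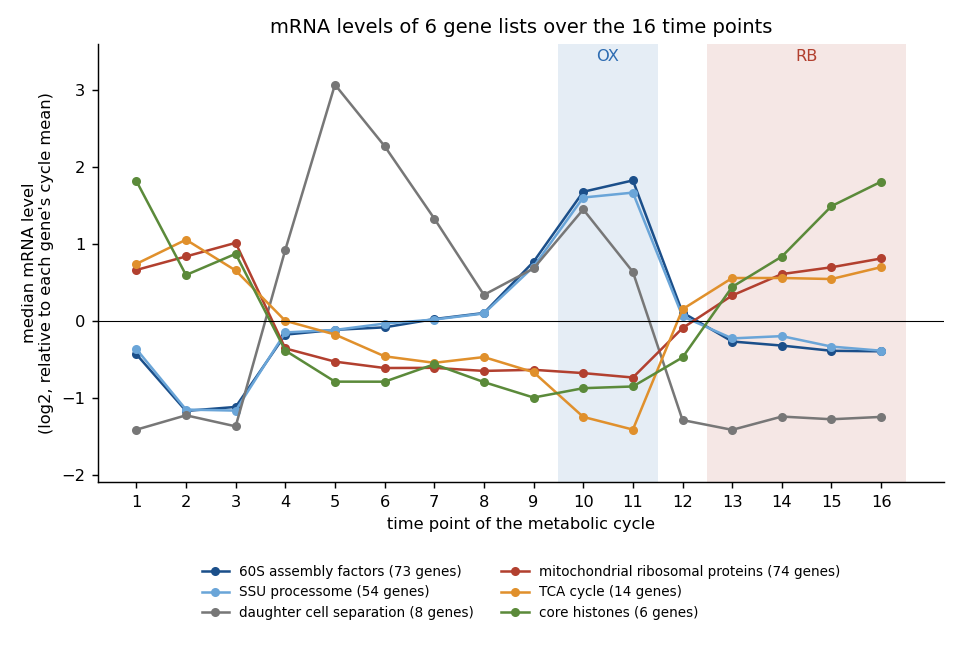
Median mRNA level of 6 gene lists at each of the 16 time points, on the log2 scale relative to each gene's mean over the cycle, with OX (time points 10 and 11) and RB (13 to 16) shaded. Levels use TMM factors over all 16 samples. The 60S assembly factors stood at 1.68 and 1.83 in OX and between -0.40 and -0.27 in RB, while core histones stood at 0.44 to 1.81 in RB and at -0.88 and -0.85 in OX.

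Genes for making ribosomes were lower in RB almost without exception. All 54 members of the small subunit (SSU) processome, which processes the precursor of the 18S rRNA, were called lower in mRNA, with a median log2 fold change of -1.99, and so were all 73 assembly factors of the large subunit (median -2.18). The median of all genes was -0.0085, and 29.0% of them were called lower. All 13 subunits and factors of RNA polymerase I (Pol I), which transcribes rRNA, fell as well (median -1.99). So did all 10 genes of RNA polymerase III (Pol III), which makes 5S rRNA and tRNA, with a median of -1.27, and all 10 genes of snoRNP proteins and nucleolins (median -1.77). Of the 166 tested genes that the files mark as ribi, 155 were lower and 1 was higher. Footprints fell as well, where 21.9% of all genes were called lower, with medians of -2.31 for the SSU processome, where all 54 were called, and -2.53 for the large subunit, where 71 of 73 were.

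The fall ranged from -3.24 to -0.97 for the SSU processome and from -2.82 to -0.77 for the large subunit. NSR1 (chrVII:806412-807656, sacCer3), the yeast nucleolin, had 213, 215, 200.1 and 218 CPM in RB, against 2241 and 2259 CPM in OX (-3.41 ± 0.10 SE, adjusted p = 1.2e-05). The 4 RB values were close together and far below both OX values. DBP2, a DEAD-box RNA helicase outside the lists, had 185, 165, 148 and 178 CPM in RB, against 1665 and 2171 CPM in OX (-3.50 ± 0.15 SE, adjusted p = 1.7e-05). DHR2, a DEAH-box helicase of the SSU processome, had 28.9, 30.6, 27.2 and 31.4 CPM in RB, against 289.5 and 267 CPM in OX (-3.24 ± 0.092 SE, adjusted p = 1.2e-05). For the large subunit, YVH1, a phosphatase that acts on late 60S precursors, had 35.8, 34.1, 31.4 and 34.2 CPM in RB, against 242 and 237 CPM in OX (-2.82 ± 0.082 SE, adjusted p = 1.2e-05), and NOP2, an rRNA methyltransferase, had 211, 188, 180.2 and 188 CPM in RB, against 663 and 884 CPM in OX (-2.01 ± 0.14 SE, adjusted p = 5.7e-05). In each of these genes the phases did not overlap, and the RB values differed little among themselves. SSF2 fell least, with 13.1, 13.9, 12.2 and 13.3 CPM in RB, against 22.9 and 21.9 CPM in OX (-0.77 ± 0.12 SE, adjusted p = 0.0017). Among the Pol I genes, RPC19, a subunit shared with Pol III, fell by 2.18 and RRN11, of the core factor, by 2.22. RRN11 differed between the OX samples, with 34.9, 43.1, 45.8 and 43.2 CPM in RB, against 307 and 82.4 CPM in OX, and its log2 fold change was -0.98 without time point 10.

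Regulators of these genes moved in both directions. TOD6 and DOT6, which encode repressors of ribi genes, were lower in RB, TOD6 with 66.6, 63.6, 55.5 and 57.4 CPM in RB, against 369 and 400.1 CPM in OX (-2.66 ± 0.11 SE, adjusted p = 1.4e-05) and DOT6 with a log2 fold change of -1.17 ± 0.10 SE. IFH1, a coactivator of ribosomal protein (RP) genes, had 115, 127, 127 and 137 CPM in RB, against 848 and 385 CPM in OX (-2.29 ± 0.27 SE, adjusted p = 0.00065). SFP1, FHL1 and the kinase gene SCH9 also fell, by 0.56, 0.47 and 0.70, FHL1 with a call that was lost without time point 11 and SFP1 with a log2 fold change of -0.36 without time point 10. STB3, the third repressor gene, was the only one of the 8 regulators called higher (0.48 ± 0.082 SE, adjusted p = 0.0029). All 4 of its RB values, 135, 141, 134 and 143 CPM, lay above 96.4 and 102 CPM in OX. CRF1 had 10.1, 10.8, 10.9 and 11.3 CPM in RB, against 15.4 and 12.4 CPM in OX (-0.37 ± 0.15 SE, adjusted p = 0.069).

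Few cytosolic RP genes were called. Of 117 tested, 19 were called lower in RB (16.2%, against 29.0% of all genes) and 2 higher, RPS26A and RPS17A (1.71%, against 27.0%). The list median was -0.19. RPS17A lost its call when any time point but 11 was left out. The levels in RB lay between those of the OX samples. The median RP gene was 0.21 above time point 10 and 0.48 below time point 11 on the log2 scale. In footprints, RB minus time point 10 was 0.29 and RB minus time point 11 was -0.69 for the median RP gene. Without time points 14, 15 or 16, 9 or 10 RP genes were called lower in mRNA. With all time points that the table assigns to each phase 1 was lower and none higher. Most RP genes have a near-identical paralog, and their counts are uncertain because only positions that the authors could map uniquely were counted. This left 117 of 137 RP genes to test.

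Most translation factors were lower in RB. Of 30 translation factors, 24 fell in mRNA (80%, against 29.0% of all genes, median -0.83) and none rose. YEF3, elongation factor 3, had 8615, 6660.0, 6304 and 6526 CPM in RB, against 12236 and 18095 CPM in OX (-1.11 ± 0.24 SE, adjusted p = 0.0073), and RLI1, the ribosome recycling ATPase, fell by 1.36. Of 21 cytosolic aminoacyl-tRNA synthetases, 12 fell in mRNA (57.1%, against 29.0% of all genes, median -0.51). The largest fall was that of KRS1, lysyl-tRNA synthetase, with 369, 295, 281 and 304 CPM in RB, against 962 and 1226 CPM in OX (-1.81 ± 0.15 SE, adjusted p = 0.00015). For the median synthetase gene, RB minus time point 10 was -0.21 and RB minus time point 11 was -0.73 on the log2 scale. Amino acid synthesis genes fell in mRNA in 29 of 57 cases (50.9%, against 29.0% of all genes, median -0.42). They rose in 2 (3.51%, against 27.0% of all genes), HOM6, whose call was lost without time point 15, and HIS2. The largest falls were those of CPA1, of arginine synthesis (-1.51), HIS6 (-1.44), LEU9 (-1.40) and LYS20 (-1.32). With all time points that the table assigns to each phase, translation factors called lower in mRNA dropped to 10, synthetases to 4 and amino acid genes to 10. In footprints, 21 translation factors, 6 synthetases and 20 amino acid genes were lower (70%, 28.6% and 35.1%, against 21.9% of all genes). These footprint counts dropped to 2, 0 and 5 with all time points of each phase.

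The largest falls among the purine genes were those of GUA1 and IMD4, both of guanine nucleotide synthesis. GUA1, GMP synthase, had 529, 343, 295 and 354 CPM in RB, against 1891 and 2365 CPM in OX (-2.48 ± 0.24 SE, adjusted p = 0.00025), and IMD4, an IMP dehydrogenase, had 144, 124, 102 and 98.2 CPM in RB, against 585 and 472 CPM in OX (-2.18 ± 0.18 SE, adjusted p = 0.00013). AAH1, adenine deaminase of purine salvage, was among the 10 largest falls in mRNA, with 58.8, 50.9, 46.7 and 51.7 CPM in RB, against 1022 and 871 CPM in OX (-4.18 ± 0.13 SE, adjusted p = 1.2e-05). In all, 7 of 19 purine and one-carbon genes fell (36.8%, against 29.0% of all genes) and none rose. The count was 4 when time point 12 was added to RB, and 2 with all time points of each phase. For the median gene of this list, RB minus time point 10 was -0.33 and RB minus time point 11 was -0.75 on the log2 scale. Of 24 sulfur assimilation genes, 7 were lower (29.2%, against 29.0% of all genes) and 1, MET17, was higher. With all time points of each phase the falls numbered 4, and without time point 14 the call of MET17 was lost. For the median sulfur gene, RB minus time point 10 was -0.49 and RB minus time point 11 was -0.16. MUP1, the high-affinity methionine permease, had 277, 120.3, 126 and 162 CPM in RB, against 1965 and 544 CPM in OX (-2.87 ± 0.53 SE, adjusted p = 0.0039), and -1.67 without time point 10.

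**Figure D2:**
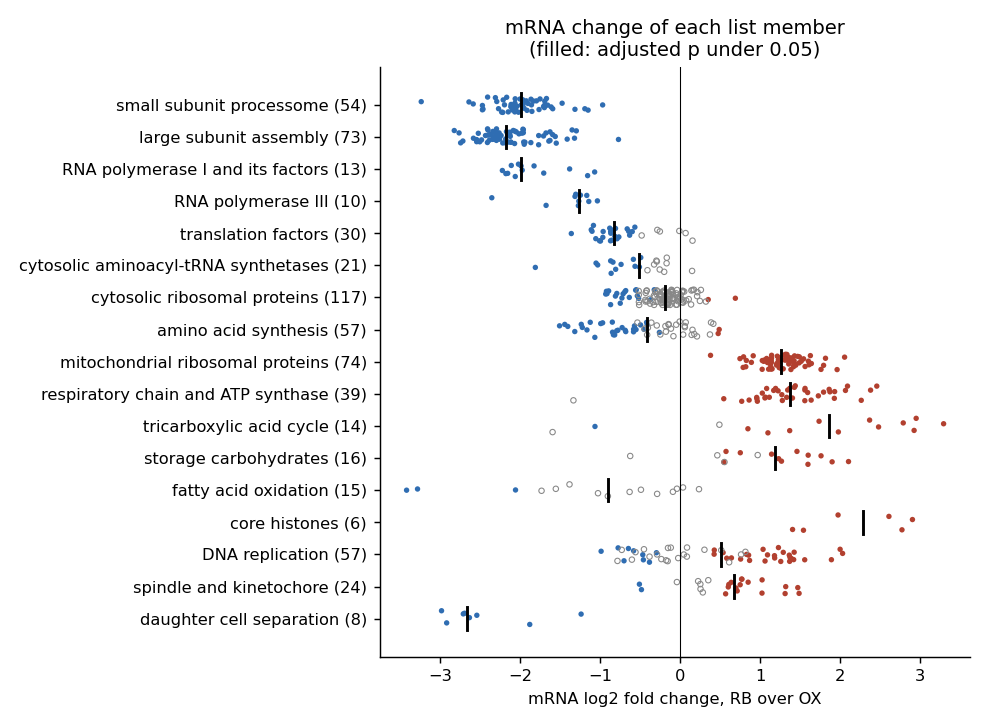
mRNA log2 fold change (RB over OX) of every tested member of 17 gene lists, with the number of members in parentheses. Filled points were called at an adjusted p under 0.05 (red higher, blue lower in RB), open points were not, and the black bar is the list median. All SSU processome and large subunit assembly genes lie left of 0, and all 74 mitochondrial ribosomal protein genes lie right of 0.

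Mitochondrial genes of nuclear origin were higher in RB. All 74 tested mitochondrial ribosomal protein (MRP) genes were called higher in mRNA, with a median of 1.27 and a range of 0.38 to 2.06, where 27.0% of all genes were called higher. All 74 were also called higher in footprints (median 1.69), where 19.2% of all genes were. MRPL31, the largest rise in mRNA, had 41.9, 53.2, 64.2 and 68.7 CPM in RB, against 16.6 and 10.7 CPM in OX (2.06 ± 0.28 SE, adjusted p = 0.0011), and RSM22, the smallest, had 137, 155, 145 and 139.9 CPM in RB, against 118 and 104 CPM in OX (0.38 ± 0.10 SE, adjusted p = 0.016). RSM22 lost its call without time point 14. Within RB the median MRP gene gained 0.50 on the log2 scale between time points 13 and 16, whereas the median step between time points 10 and 11 was -0.049. The synthetases and modifying enzymes of mitochondrial tRNAs, a list added after the values were seen, were higher in mRNA in 17 of 20 cases (median 1.24) and in footprints in 18 (median 2.12). MSF1, mitochondrial phenylalanyl-tRNA synthetase, had 55.9, 70.0, 85.1 and 83.8 CPM in RB, against 16.3 and 9.95 CPM in OX (2.49 ± 0.28 SE, adjusted p = 0.00047). GTF1, of the amidotransferase for glutaminyl-tRNA, was the 1 member called lower (-0.41 ± 0.14 SE, adjusted p = 0.04), a call that was lost when any time point but 11 was left out.

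Genes of the respiratory chain and ATP synthase were also higher in mRNA, in 38 of 39 cases (97.4%, against 27.0% of all genes, median 1.37). SDH1, the flavoprotein of succinate dehydrogenase, had 1936, 1679.5, 1545 and 1841 CPM in RB, against 313 and 323 CPM in OX (2.46 ± 0.15 SE, adjusted p = 4.3e-05), and CYC1, cytochrome c, had 445, 446, 419 and 475 CPM in RB, against 63.8 and 108 CPM in OX (2.38 ± 0.23 SE, adjusted p = 0.00023). The exception, NDE2, an external NADH dehydrogenase, had 31.1, 34.3, 36.1 and 39.9 CPM in RB, against 156 and 21.9 CPM in OX (-1.33 ± 0.61 SE, adjusted p = 0.11), and its OX samples enclosed the RB values. Its footprints were called lower (-2.0 ± 0.68 SE, adjusted p = 0.048), but the log2 fold change was 0.53 without time point 10, and the call was also lost without any 1 of the RB time points. Of 33 assembly factors of the chain, 26 were higher in mRNA (78.8%, against 27.0% of all genes, median 1.04). COX17, a copper chaperone of cytochrome c oxidase, had 22.5, 33.5, 42.3 and 52.7 CPM in RB, against 7.88 and 3.89 CPM in OX (2.67 ± 0.45 SE, adjusted p = 0.0027). COX19 and PET122 were lower (-1.25 and -0.65). Protein import genes were higher in 24 of 35 cases (68.6%, against 27.0% of all genes, median 0.69). MIA40, the oxidoreductase of the intermembrane space, rose most, with 278, 328, 344 and 379 CPM in RB, against 82.3 and 67.0 CPM in OX (2.15 ± 0.17 SE, adjusted p = 0.00011). TIM22 was the 1 import gene called lower (-0.40), a call lost without time point 11, 13, 14 or 15.

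No gene of the mitochondrial genome was called in mRNA, of the 6 that could be tested in a list added after the values were seen. COX1, the catalytic subunit of cytochrome c oxidase, had 3869, 3266, 4413 and 2224 CPM in RB, against 4668 and 3394 CPM in OX (-0.23 ± 0.29 SE, adjusted p = 0.54), and COB, cytochrome b, had 1188, 833, 1616 and 401 CPM in RB, against 1141 and 568 CPM in OX (0.24 ± 0.55 SE, adjusted p = 0.73). In both genes time point 16 was the lowest RB sample, time point 15 the highest, and the ranges overlapped. Footprints on these genes were called for ATP6 alone (1.82 ± 0.45 SE, adjusted p = 0.014). The call was lost when time point 12 was added to RB and with all time points of each phase. CHX acts on cytosolic and not on mitochondrial ribosomes.

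The tricarboxylic acid (TCA) cycle held several of the largest rises. Of 14 genes 11 were higher in mRNA (78.6%, against 27.0% of all genes) and 1 was lower (7.14%, against 29.0%), with a median of 1.86. CIT1 (chrXIV:629622-631061), mitochondrial citrate synthase, had 1998, 2146, 2519 and 3197 CPM in RB, against 297 and 205 CPM in OX (3.30 ± 0.29 SE, adjusted p = 0.00018). MDH1, malate dehydrogenase, had 1274, 1251, 1200.2 and 1501 CPM in RB, against 126 and 212 CPM in OX (2.95 ± 0.26 SE, adjusted p = 0.00016). IDH2 and ACO1, which encode a subunit of isocitrate dehydrogenase and aconitase, rose by 2.93 and 2.79. All RB values of these 4 genes lay above both OX values by a wide margin. CIT3, a minor citrate synthase, had 12.4, 17.5, 27.1 and 36.0 CPM in RB, against 118 and 22.1 CPM in OX and did not pass the test (adjusted p = 0.074).

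Cell-cycle genes changed in both directions. CLN3, the upstream G1 cyclin, was lower in RB, with 206, 166, 140.0 and 129 CPM in RB, against 319.7 and 423 CPM in OX (-1.21 ± 0.21 SE, adjusted p = 0.003). Of the G1 and S cyclins that follow it, CLN1, CLN2 and CLB6 were higher. CLN1 had 329, 367, 309.9 and 246 CPM in RB, against 36.6 and 101 CPM in OX (2.19 ± 0.42 SE, adjusted p = 0.0046), CLN2 had 506, 539.5, 386 and 281 CPM in RB, against 124 and 205 CPM in OX (1.38 ± 0.33 SE, adjusted p = 0.012), and CLB6, a cyclin of DNA replication, had 78.5, 62.0, 41.3 and 24.9 CPM in RB, against 5.99 and 16.5 CPM in OX (2.21 ± 0.60 SE, adjusted p = 0.019). CLB6 was lower at each later RB time point and lost its call without time point 10, where its log2 fold change was 1.65. Levels of CLB1 and SWI5 were higher at each later RB time point. CLB1, a mitotic cyclin, had 33.0, 44.2, 59.7 and 77.1 CPM in RB, against 16.2 and 23.4 CPM in OX (1.44 ± 0.37 SE, adjusted p = 0.015), a call also lost without time point 10, and SWI5, a transcription factor of late mitosis, had 30.3, 40.6, 51.8 and 66.9 CPM in RB, against 22.8 and 26.5 CPM in OX (0.94 ± 0.31 SE, adjusted p = 0.039). The call of SWI5 was lost when any time point but 13 was left out. Of 22 cyclins and regulators, 9 were higher (40.9%, against 27.0% of all genes) and 3 lower (13.6%, against 29.0%). The 3 lower genes were CLN3, PCL9 and ASH1, of which ASH1 was not called without time point 15. With all time points of each phase, 5 were higher.

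Of 57 DNA replication genes, 27 were higher in RB (47.4%, against 27.0% of all genes) and 9 lower (15.8%, against 29.0%), with a median of 0.52. POL30, the sliding clamp PCNA, had 253, 241, 209 and 149 CPM in RB, against 40.7 and 63.5 CPM in OX (2.03 ± 0.29 SE, adjusted p = 0.0013), and MCD1, a cohesin subunit, had 317, 348, 273 and 208 CPM in RB, against 48.7 and 94.3 CPM in OX (2.0 ± 0.33 SE, adjusted p = 0.0026). RNR1, the large subunit of ribonucleotide reductase, had 1988, 1917, 1505 and 1089 CPM in RB, against 286 and 817 CPM in OX (1.56 ± 0.47 SE, adjusted p = 0.027), with its lowest RB value still above both OX values. Its log2 fold change was 0.99 without time point 10 and 2.51 without time point 11, and its call was lost without time point 13, 14 or 15 (adjusted p = 0.056, 0.06 and 0.054). MCM3, a subunit of the replicative helicase, went the other way, with 479, 370.1, 286 and 257 CPM in RB, against 637 and 742 CPM in OX (-0.99 ± 0.25 SE, adjusted p = 0.014), and the other 5 subunits, MCM2 and MCM4 to MCM7, had log2 fold changes of -0.73 to -0.38 that did not pass the test. With all time points of each phase, 15 replication genes were higher and 5 lower.

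All 6 tested core histone genes were called higher in mRNA in RB, where 27.0% of all genes were. The level of each was higher at every later time point of the phase. HHT2, a histone H3 gene, had 28.0, 36.0, 49.5 and 71.7 CPM in RB, against 7.01 and 5.29 CPM in OX (2.91 ± 0.44 SE, adjusted p = 0.0017). HTA2, a histone H2A gene, had 27.1, 47.6, 65.3 and 85.2 CPM in RB, against 7.12 and 9.38 CPM in OX (2.78 ± 0.49 SE, adjusted p = 0.0033). The list median was 2.29 in mRNA and 1.83 in footprints, and between time points 13 and 16 the median gene gained 1.36 on the log2 scale. HTA1 rose least (1.41 ± 0.36 SE, adjusted p = 0.016) and was not called without time point 11 (adjusted p = 0.058). In a bulk culture, a larger share of cells in S phase and more histone mRNA per cell cannot be told apart. Spindle and kinetochore genes were higher in mRNA in 16 of 24 cases (66.7%, against 27.0% of all genes) and lower in 2 (8.33%, against 29.0%). Their median was 0.67. SPC97, of the gamma-tubulin complex, had 98.6, 123, 136 and 131 CPM in RB, against 37.6 and 49.4 CPM in OX (1.49 ± 0.18 SE, adjusted p = 0.00065).

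**Figure D3:**
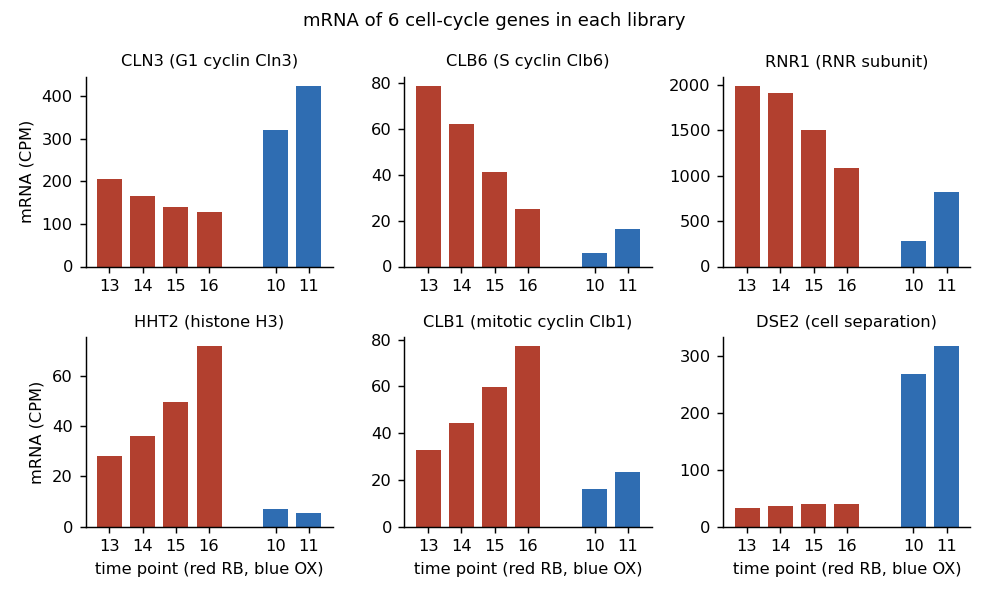
mRNA level (CPM, TMM-scaled) of 6 cell-cycle genes in each library, RB time points 13 to 16 in red and OX time points 10 and 11 in blue; every bar is 1 sample and every axis starts at 0. CLB6 and RNR1 decrease from time point 13 to 16 while HHT2 and CLB1 increase, and CLN3 and DSE2 are lower in all 4 RB samples than in both OX samples.

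The 8 genes of daughter cell separation were all called lower in mRNA (median -2.66), where 29.0% of all genes were. DSE2 had 32.1, 36.6, 39.9 and 39.3 CPM in RB, against 268 and 317 CPM in OX (-2.98 ± 0.12 SE, adjusted p = 1.4e-05), CTS1, the chitinase, had 247, 206, 194 and 206 CPM in RB, against 741 and 826 CPM in OX (-1.88 ± 0.12 SE, adjusted p = 5.1e-05), and PRY3 had 24.1, 24.3, 25.8 and 26.4 CPM in RB, against 160.0 and 169 CPM in OX (-2.71 ± 0.082 SE, adjusted p = 1.2e-05). No RB value of the 3 genes came near an OX value. At time point 12, which the sample table assigns to RB but which is outside the comparison, this list had already reached its RB level, with a median of -1.29 relative to the cycle mean, against -1.42 at time point 13. The SSU processome stood at 0.057 there, with -0.23 at time point 13 and 1.67 at time point 11.

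In carbon metabolism, HXK1 had the largest called rise of mRNA among genes with 32 or more counts in each RB sample. HXK1 (chrVI:253592-255049), hexokinase I, had 1293, 1472, 1663 and 1819 CPM in RB, against 68.2 and 162 CPM in OX (3.76 ± 0.41 SE, adjusted p = 0.00042). Its relatives HXK2 and GLK1 also rose, by 1.24 and 1.63, where that of HXK2 was 0.81 without time point 10 and 1.86 without time point 11. Otherwise glycolysis and fermentation were split, with 4 of 21 genes higher and 4 lower (19.0% each, against 27.0% and 29.0% of all genes). PDC6, a minor pyruvate decarboxylase, had 35.9, 24.0, 17.8 and 18.2 CPM in RB, against 368 and 206 CPM in OX (-3.58 ± 0.34 SE, adjusted p = 0.00023), while CDC19, pyruvate kinase, fell by 0.89. Genes for storage carbohydrates, glycogen and trehalose, were higher in mRNA in 12 of 16 cases (75%, against 27.0% of all genes, median 1.19) and lower in none. PGM2, phosphoglucomutase, had 268, 221, 219 and 206 CPM in RB, against 53.7 and 52.4 CPM in OX (2.11 ± 0.14 SE, adjusted p = 5.3e-05). GSY1, glycogen synthase, had 71.1, 71.4, 84.0 and 96.6 CPM in RB, against 20.2 and 27.4 CPM in OX (1.76 ± 0.20 SE, adjusted p = 0.00046). In footprints 8 of the 16 were higher (50%, against 19.2% of all genes) and 1 lower (6.25%, against 21.9%). With all time points of each phase, 2 were called higher in mRNA, and none was called higher or lower in footprints. For the median gene in footprints, RB minus time point 10 was 0.59 and RB minus time point 11 was 2.05 on the log2 scale. In TE these medians were -0.46 and 0.99.

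Of 11 genes of gluconeogenesis and acetyl-CoA synthesis, 4 were higher in RB (36.4%, against 27.0% of all genes) and 3 lower (27.3%, against 29.0%). The list median was 0.71. The higher calls numbered 2 without time point 15 or 16, and none was lower with all time points of each phase. For the median gene of this list, RB minus time point 10 was 0.27 and RB minus time point 11 was 0.88 on the log2 scale. ADH2 and ALD4, which oxidize ethanol and acetaldehyde, were lower in RB, at log2 fold changes that did not pass the test with all time points of each phase (-1.01, adjusted p = 0.68, for ADH2 and -1.16, adjusted p = 0.56, for ALD4). ADH2 had 23.6, 18.6, 15.3 and 20.0 CPM in RB, against 572 and 91.9 CPM in OX (-4.10 ± 0.61 SE, adjusted p = 0.0016) and ALD4 had 314, 295, 283 and 361 CPM in RB, against 6821 and 1520.0 CPM in OX (-3.74 ± 0.51 SE, adjusted p = 0.0011). ICL1, isocitrate lyase of the glyoxylate cycle, was higher, with 389, 438, 511 and 658 CPM in RB, against 153 and 165 CPM in OX (1.65 ± 0.23 SE, adjusted p = 0.0012). Without time point 10, ADH2 had a log2 fold change of -2.25 and ALD4 of -2.28. Both had a large step between the OX samples themselves, as did many genes of fatty acid oxidation and stress. For the median gene of fatty acid oxidation, RB minus time point 10 was -1.63 and RB minus time point 11 was 0.53 on the log2 scale. For stress and chaperone genes these medians were -0.83 and 1.09. Of the 675 genes lower by at least 1, 80 (11.9%) fell further between time points 10 and 11 than between time point 11 and the RB mean, and of the 535 higher, 32 (5.98%) rose further. ACS1, acetyl-CoA synthetase, had 113, 135, 169 and 224 CPM in RB, against 952 and 158 CPM in OX (-1.79 ± 0.61 SE, adjusted p = 0.043), but its log2 fold change was 0.020 without time point 10, and the call was also lost without any single RB time point.

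Fatty acid oxidation genes were lower in 3 of 15 cases in mRNA (20%, against 29.0% of all genes, median -0.90). In footprints 7 were lower (46.7%, against 21.9% of all genes, median -1.92). The mRNA calls were those of POT1, FOX2 and CTA1. POT1, the peroxisomal thiolase, had 8.25, 7.08, 8.82 and 9.88 CPM in RB, against 164 and 18.3 CPM in OX (-3.42 ± 0.70 SE, adjusted p = 0.006) and FOX2, of the same pathway, had 24.8, 23.8, 26.9 and 38.2 CPM in RB, against 497 and 56.0 CPM in OX (-3.28 ± 0.70 SE, adjusted p = 0.0073). Without time point 10 their log2 fold changes were -1.10 and -0.98, and that of CTA1 was -0.99. In footprints, RB minus time point 10 was -2.80 for the median gene and RB minus time point 11 was 0.26 on the log2 scale. With all time points of each phase none of the 15 genes was called lower in mRNA or footprints. Among 22 stress and chaperone genes, 7 were lower (31.8%, against 29.0% of all genes) and 1, HSP78, was higher. Time point 10 was high here as well. GRE1, a hydrophilin, had 5.36, 6.25, 6.09 and 8.69 CPM in RB, against 622 and 43.9 CPM in OX (-5.65 ± 0.88 SE, adjusted p = 0.002), and HSP12 had 57.8, 57.6, 56.3 and 56.9 CPM in RB, against 986 and 136 CPM in OX (-3.30 ± 0.62 SE, adjusted p = 0.0043). Without time point 10 these were -2.73 and -1.26, and HSP78 had 2.92. In footprints of the 22 genes, the median of RB minus time point 10 was -0.92 and that of RB minus time point 11 was 1.02.

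Smaller or mixed changes were seen in the remaining lists. Of 33 proteasome genes 8 were higher (24.2%, against 27.0% of all genes) and none lower (median 0.31). The count was 3 or 4 without time points 15 or 14, and 0 with all time points of each phase. For the median proteasome gene, RB minus time point 10 was 0.11 and RB minus time point 11 was 0.54 on the log2 scale. Autophagy genes were higher in 12 of 22 cases (54.5%, against 27.0% of all genes, median 0.47), led by ATG7 (1.98 ± 0.20 SE, adjusted p = 0.00032). With all time points of each phase 1 was higher. For the median autophagy gene, RB minus time point 10 was 0.31 and RB minus time point 11 was 0.79. Ergosterol synthesis had 3 genes higher and 5 lower of 23 (13.0% and 21.7%, against 27.0% and 29.0% of all genes). For the median gene of this list, RB minus time point 10 was -0.063 and RB minus time point 11 was 0.15. ERG1, squalene epoxidase, had 454, 411, 402 and 453 CPM in RB, against 1704 and 1354 CPM in OX (-1.83 ± 0.13 SE, adjusted p = 7.1e-05). Its phases did not overlap.

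The 10 largest falls in mRNA that were free of overlap between the phases, with 32 or more counts in both OX samples, included transporters and genes without a well-known role. AQR1 (chrXIV:503724-505484), a drug and amino acid exporter of the plasma membrane, had 8.90, 9.32, 8.50 and 11.4 CPM in RB, against 1190.3 and 156 CPM in OX (-6.14 ± 0.71 SE, adjusted p = 0.00056). YMR244W had 17.4, 10.0, 7.90 and 9.02 CPM in RB, against 570.1 and 679 CPM in OX (-5.82 ± 0.32 SE, adjusted p = 2.7e-05), ANS1 had 0.978, 0.466, 0.416 and 0.412 CPM in RB, against 27.6 and 28.3 CPM in OX (-5.61 ± 0.30 SE, adjusted p = 2.3e-05) and YOR338W had 15.9, 14.3, 12.2 and 16.3 CPM in RB, against 582 and 269.6 CPM in OX (-4.86 ± 0.30 SE, adjusted p = 4e-05). HXT4, a hexose transporter, had 33.1, 12.1, 9.23 and 8.36 CPM in RB, against 206 and 641 CPM in OX (-4.75 ± 0.68 SE, adjusted p = 0.0014). In OX, time point 11 was the lower sample for AQR1 and the higher one for HXT4. Without time point 10, AQR1 had a log2 fold change of -4.03 and YDL218W of -1.07. HXT4 has close relatives among the hexose transporters and was counted on uniquely mapping positions. GPP2, a glycerol phosphatase, and YDL218W were also among the 10 largest falls, at -4.01 and -4.38. On the other side, YMR206W (3.03), AIM17 (2.82) and SAP4 (2.78), a partner of the phosphatase Sit4, were among the 10 largest rises besides HXK1 and the TCA cycle and histone genes above.

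Footprints added transporters and paralogs of abundant proteins to these genes. MCH5 (chrXV:889867-891432), the riboflavin transporter, had 5.02, 6.66, 8.14 and 6.18 CPM in RB, against 789 and 232 CPM in OX (-6.30 ± 0.47 SE, adjusted p = 9.5e-05). HEF3 and PMA2, the minor forms of elongation factor 3 and of the plasma membrane proton pump, had 13.3, 15.1, 22.9 and 10.7 CPM in RB, against 797 and 158 CPM in OX (HEF3, -4.95 ± 0.58 SE, adjusted p = 0.00048) and 13.0, 30.8, 42.7 and 13.6 CPM in RB, against 1208 and 148 CPM in OX (PMA2, -4.76 ± 0.80 SE, adjusted p = 0.0024). Both are close relatives of very abundant genes, so that their counts rest on the positions left after masking. ZRT1, the high-affinity zinc transporter, had 9.06, 6.54, 9.07 and 2.32 CPM in RB, against 198 and 198 CPM in OX (-4.88 ± 0.45 SE, adjusted p = 0.00019). The phases did not overlap in any of the 4, and the log2 fold change of PMA2 was -2.59 without time point 10. Among the rises, AIM33 had 165, 139, 119 and 179 CPM in RB, against 7.59 and 14.7 CPM in OX (3.76 ± 0.34 SE, adjusted p = 0.00018), YNK1, nucleoside diphosphate kinase, had 25.3, 30.4, 34.3 and 34.1 CPM in RB, against 2.67 and 3.32 CPM in OX (3.38 ± 0.27 SE, adjusted p = 0.00012), and YMR206W had 107, 94.9, 89.6 and 84.4 CPM in RB, against 2.67 and 4.95 CPM in OX (4.64 ± 0.31 SE, adjusted p = 9.3e-05).

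TE changed in few genes, and many of the 47 genes called higher in RB were mitochondrial. The mitochondrial gene lists, some of them drawn up after values were seen, held 18 of the 47 and none of the 17 called lower, with 221 list genes among the 5179 tested. By their known roles, which were assigned after the calls were seen and were not counted over all genes, 29 of the 47 encode mitochondrial proteins. The 29 genes include 8 MRPs, 6 enzymes that charge or modify mitochondrial tRNAs, and 9 further factors of mitochondrial translation or transcription, where 0.908% of all genes tested were called higher. GUF1, a mitochondrial translation factor, had a TE of 0.747, 0.769, 0.837 and 0.903 in RB, against 0.336 and 0.245 in OX (log2 fold change 1.5 ± 0.18 SE, adjusted p = 0.014). MTO1 (chrVII:53787-55796), which modifies mitochondrial tRNAs, had 0.583, 0.675, 0.665 and 0.651 in RB, against 0.28 and 0.25 in OX (1.28 ± 0.13 SE, adjusted p = 0.0035), while its mRNA did not pass the test (0.36 ± 0.14 SE, adjusted p = 0.063). DIA4, a mitochondrial seryl-tRNA synthetase, had 0.88, 1.02, 0.989 and 1.01 in RB, against 0.376 and 0.46 in OX (1.23 ± 0.15 SE, adjusted p = 0.014), and AEP1, needed for translation of the mitochondrial OLI1 mRNA, had 0.423, 0.487, 0.413 and 0.486 in RB, against 0.194 and 0.17 in OX (1.31 ± 0.15 SE, adjusted p = 0.014). The RB values of these 4 genes all lay above the OX values. Of the 47 genes, 31 were also called higher in mRNA and 43 in footprints. These calls depended on single samples. Leaving out time point 13, 14, 15 or 16 left 4, 4, 6 and 6 calls over all genes. Fits without time point 10 or 11 keep 1 OX sample and hold no spread between OX samples, so their calls are not counted here. FIG2, HCM1, MTO1 and MCH5 were called whichever RB time point was left out. Without the replicate block that pairs the mRNA and footprint libraries of a time point, edgeR called 0 genes, with 323 at an unadjusted p under 0.05, and DESeq2 with the block called 181.

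TE values of MRP genes that were not called lay mostly on the same side. The 8 MRP calls became 4 when time point 12 was added to RB and 0 without any 1 of the RB time points. For the median MRP gene, RB minus time point 10 was 0.51 and RB minus time point 11 was 0.31 on the log2 scale. The median TE of the 74 MRP genes was 1.23, 1.28, 1.32 and 1.29 in RB, against 0.891 and 1.03 in OX. The median log2 fold change of the list was 0.41, with 70 of 74 genes above 0, where the median of all genes was -0.0043. For the tRNA list the medians were 0.907, 0.903, 0.873 and 0.938 in RB, against 0.626 and 0.557 in OX, and the median log2 fold change was 0.77. For the respiratory chain and the TCA cycle the medians were 0.017 and 0.045, with 1 call, QCR6, a subunit of the cytochrome bc1 complex.

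**Figure D4:**
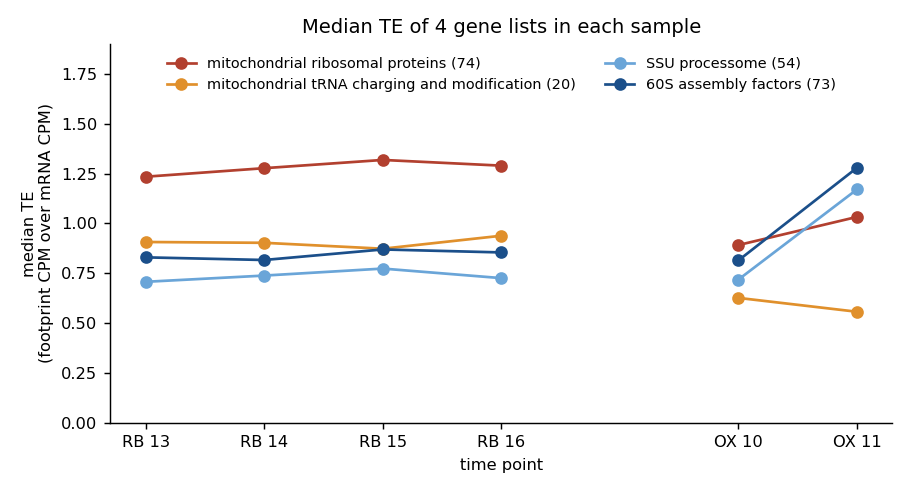
Median TE (footprint CPM over mRNA CPM) of 4 gene lists in each sample, RB time points 13 to 16 on the left and OX time points 10 and 11 on the right; lines join samples of 1 phase. The lists of mitochondrial translation lie higher in all RB samples than in both OX samples, whereas the SSU processome and the 60S assembly factors lie near the level of time point 10 and below that of time point 11.

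The TE of ribi genes in RB was close to that of the earlier OX sample and below that of the later one. For the SSU processome the median TE was 0.707, 0.738, 0.773 and 0.726 in RB, against 0.718 and 1.17 in OX. The median gene of this list differed from time point 10 by 0.037 and from time point 11 by -0.63 on the log2 scale, and for the large subunit list by 0.027 and -0.60. Against both OX samples none of the 54 SSU processome genes and 1 of the 73 large subunit genes, NOG2, a GTPase, was called in TE. Without any 1 of the RB time points, none of the 73 large subunit genes or the 166 genes marked as ribi was called lower in TE. For the median gene marked as ribi, RB minus time point 10 was 0.056 and RB minus time point 11 was -0.57. NSR1 was also called (-0.83 ± 0.14 SE, adjusted p = 0.031), with 0.612, 0.656, 0.654 and 0.654 in RB, against 0.962 and 1.35 in OX. DBP2 had 0.647, 0.515, 0.566 and 0.471 in RB, against 0.675 and 1.56 in OX and did not pass the test (-0.91 ± 0.29 SE, adjusted p = 0.18), and neither did NOP2 (-0.26 ± 0.19 SE, adjusted p = 0.58). The change of ribi footprints between these samples was mostly one of mRNA, with medians of -1.99 in mRNA, -2.31 in footprints and -0.31 in TE for the SSU processome. The paper reports that CHX pretreatment of cells starved for amino acids raised ribi mRNA and lowered ribi footprints. Its part in the ribi values of these CHX-treated samples was not tested.

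Outside the mitochondria, the largest rises in TE among genes with 32 or more footprints in each sample were those of FIG2 (chrIII:267434-272263) and HCM1 (chrIII:229310-231004). FIG2, a cell wall adhesin of mating, had 0.253, 0.196, 0.211 and 0.265 in RB, against 0.028 and 0.042 in OX (2.73 ± 0.20 SE, adjusted p = 0.00042), from 107 to 861 footprints a sample. HCM1, a forkhead transcription factor of S phase, had 0.404, 0.437, 0.413 and 0.373 in RB, against 0.0835 and 0.107 in OX (2.1 ± 0.14 SE, adjusted p = 0.00035). A further 4 genes of the cell surface were called, among them AGA1, an anchor of agglutinin, with 1.58, 1.61, 1.31 and 1.14 in RB, against 0.652 and 0.556 in OX (1.22 ± 0.16 SE, adjusted p = 0.015). The falls were led by MCH5, with 0.0997, 0.133, 0.154 and 0.114 in RB, against 0.633 and 0.742 in OX (-2.47 ± 0.17 SE, adjusted p = 0.00035), so that its footprints (-6.30) fell further than its mRNA (-3.91, and -2.59 without time point 10). PXA2, a subunit of the peroxisomal fatty acid transporter, had 0.354, 0.374, 0.588 and 0.426 in RB, against 1.59 and 1.20 in OX (-1.71 ± 0.27 SE, adjusted p = 0.027) at an mRNA level that did not pass the test (0.038 ± 0.56 SE, adjusted p = 0.96). RGT2, a glucose sensor, and ZRT2, a zinc transporter, fell by 1.12 and 1.24. In each gene named here the 4 RB values lay on 1 side of both OX values.

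**Figure D5:**
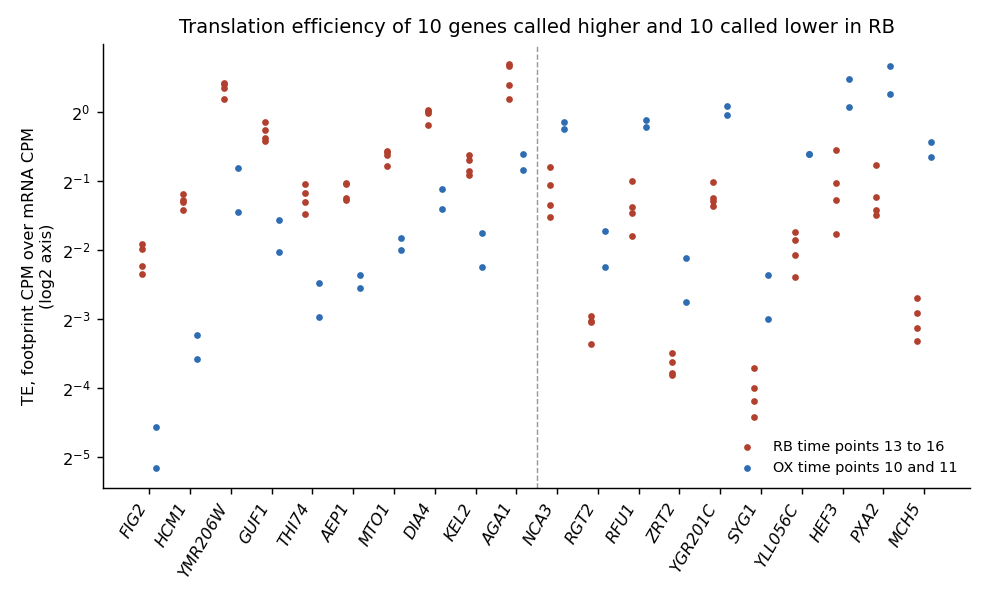
TE (footprint CPM over mRNA CPM, log2 axis) of the 10 genes with the largest called rises and the 10 with the largest called falls that had 32 or more footprints in each of the 6 samples. Points are single samples, RB in red on the left and OX in blue on the right of each gene; the dashed line separates rises from falls. FIG2, HCM1, MTO1 and MCH5 were called whichever RB time point was left out.

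GCN4, the activator of amino acid synthesis whose translation is held back by upstream reading frames, had a TE of 0.0608, 0.0666, 0.0592 and 0.0585 in RB, against 0.103 and 0.0731 in OX and did not pass the test (-0.51 ± 0.15 SE, adjusted p = 0.15). Its mRNA had 1584, 1349, 1582 and 1533 CPM in RB, against 1296 and 1249 CPM in OX (0.25 ± 0.13 SE, adjusted p = 0.14). HAC1, the regulator of the unfolded protein response that is held back from translation by its intron, was called higher in mRNA (0.77 ± 0.18 SE, adjusted p = 0.011), but had only 8, 13, 23 and 27 footprints in RB, against 3 and 0 in OX, and its TE was not called (adjusted p = 0.15).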

How the data were processed

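CEN.PK was sampled at 16 time points of 1 metabolic cycle, and the RNA-seq and ribosome profiling libraries of time points 13 to 16 (RB) and 10 and 11 (OX) were used here. The authors removed rRNA and tRNA reads with Bowtie 1.1.2, aligned the rest to sacCer3 with TopHat2 2.1.1, and deposited counts per CDS, with footprints assigned to their P-sites, leaving out the first 30 and the last 5 codons and positions that do not map uniquely. Whether molecular identifiers were collapsed is not given in the sources used here. RPKM values, also deposited by the authors, entered only an alternative. Dissolved oxygen comes from the sample table deposited by the authors and is in percent, as its header says. 0 columns of other samples were present.

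Counts were normalised by TMM within each kind of library and tested with edgeR 4.0.16 (R 4.3.3) by estimateDisp, glmQLFit and glmQLFTest, with Benjamini-Hochberg adjustment over all genes tested. Of 7133 features, 784 were marked as dubious. A mean of at least 1 footprint was also required for footprints and TE. TE was tested as the interaction of library type and phase, with time point as a block, since both libraries of a time point come from 1 lysate. Their deviations from the phase means correlated at r = 0.69, 0.25, 0.30 and 0.55 for time points 13 to 16, and at 0.73 for time points 10 and 11, which mirror each other, across 5179 genes, which are not independent. The procedure was also run on simulated counts with known fold changes. Libraries were drawn there independently, with the spread of the RB time points, so that the rate of false calls in these data was not tested.

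The genes named are, in each direction and measure, the 10 with the largest called change whose RB values all lay on 1 side of the OX values and that had at least 32 counts in every sample of the higher phase (in every sample for TE), the 4 largest absolute changes of each list, and a few marker genes. Outside this rule, ASH1, CDC19, CLN3, COX19, CTS1, FHL1, GTF1, HIS2, HOM6, HSP78, MCM3, PCL9, PET122, RPS17A, RPS26A, RSM22, SFP1, SSF2, SWI5 and TIM22, the other MCM genes and the members called in small counts were chosen after their values were seen. The members and the gene lists were chosen with earlier results of these data known, and some lists were added after the values were seen, as stated beside them. Alternatives were DESeq2 1.42.0, limma 3.58.1 on log2(RPKM + 1), RLE size factors, other filters, other time points, and each time point left out. Coordinates are those of RefSeq for sacCer3. A search of promoters for motifs was not run, because no promoter sequences were used here.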

Additional observations from a re-analysis of the deposited data

Results flagged for a closer look

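For each named gene and each list median, the 4 RB time points were checked for 1 sample that lies far from the other 3 by Dixon's ratio. Of 267 groups of 4 values, 17 held such a sample, and chance alone marks about 1 in 20 groups.

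Among genes that were lower in RB, time point 13 lay above the others for YMR244W footprints (14.8 CPM, others 1.77 to 3.91), ANS1 mRNA (0.978 CPM, others 0.412 to 0.466), HXT4 mRNA (33.1 CPM, others 8.36 to 12.1), HXT4 footprints (49.3 CPM, others 3.10 to 9.83), YLL056C mRNA (28.3 CPM, others 24.4 to 24.9) and DBP2 footprints (119.8 CPM, others 83.6 to 84.9). The TE of NSR1 was lowest there (0.612, others 0.654 to 0.656). Time point 15 stood apart for YOR338W footprints (16.6 CPM, others 12.2 to 12.7), GFD2 mRNA (24.2 CPM, others 30.2 to 31.0) and ZRT2 footprints (5.58 CPM, others 6.73 to 6.96).

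Among genes that were higher in RB, time point 13 was the lowest for the TE of YIL169C (0.334, others 0.737 to 0.806), the TE of MSF1 (1.18, others 1.48 to 1.51) and DIA4 footprints (66.8 CPM, others 92.2 to 95.6). Of the list medians relative to OX on the log2 scale, time point 16 stood below the others for DNA replication mRNA (0.26, others 0.59 to 0.65), amino acid synthesis TE (-0.075, others 0.067 to 0.076) and glycolysis and fermentation TE (-0.26, others -0.018 to 0.012). Proteasome footprints were lowest at time point 13 (0.24, others 0.27 to 0.28).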

How the results depend on the processing

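The counts of called genes in mRNA (2908) and footprints (2128) stayed within 1.5 times of these values under each alternative that kept both OX samples. They were 2357 to 2630 and 1659 to 1825 when 1 RB time point was left out. limma on log2(RPKM + 1) called 2937 genes in mRNA, 58.3% of them higher in RB against 48.2% in edgeR. The median log2 fold change of all genes was 0.115 in limma and -0.0085 in edgeR. For TE, edgeR called 64 genes, DESeq2 181, limma 31, and edgeR without the replicate block 0, with 323 at an unadjusted p under 0.05. Leaving out 1 time point gave 4 to 831 TE calls. Among the remaining settings none moved these 3 counts by more than 1.5 times, but the genes called were not all the same. With time point 12 added to RB, 37 of the 64 TE genes were still called, and also 37 with all time points of each phase. In mRNA, 1951 of the 2908 calls were kept with all time points of each phase. For single genes, leaving out 1 time point at a time gave log2 fold changes of -2.87 to 0.53 for NDE2 footprints and -2.57 to 0.020 for ACS1 mRNA. With all time points that the sample table assigns to RB or OX, an alternative chosen after seeing the data, as was leaving out mitochondrially encoded genes, the direction turned for ACS1 mRNA (0.30) and footprints (0.35), CIT3 footprints (0.94), CTA1 mRNA (0.054) and POX1 footprints (0.25). The cause was not tested. A motif search in promoters, planned as part of the work, was not run. The comparison rests on 2 OX samples of 1 culture that differ strongly in genes of ethanol use, fatty acid oxidation and stress. They also differ strongly in the footprints of storage carbohydrate genes. A call in these genes therefore depends on which OX sample is used. At 12149282 to 27429226 footprints a library, TE of genes with few footprints, such as HAC1, could not be measured well.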

Other observations

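Outside the 6 samples compared, time point 12, which the deposited sample table assigns to RB, and time point 1, the first RB sample of the record, show how the lists moved around the comparison. Relative to each gene's mean over the 16 time points, the median mRNA level of MRP genes was -0.10 at time point 12 and that of the TCA cycle 0.15, while core histones stood at -0.48. At time point 1 the core histones reached 1.82. These are values of single samples and were not tested.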
